A study of Danio rerio with 2 samples.

Results

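Coarse cluster 7 is a group of 683 cells among 10469 cells of zebrafish (Danio rerio) embryo tails that had been sorted by an npas4l reporter and profiled by droplet-based single-cell RNA sequencing. Its members are all cells to which the authors gave the coarse Leiden cluster number 7, with the library taken from the genotype written beside each cell. Leiden clustering groups cells whose expression profiles are close to each other, so the number comes from the cells' own transcripts. The tables used here tie the number to no cell type and hold no marker genes, so the cluster is called by its number and could not be checked against markers. Of its cells, 185 came from the heterozygous library and 498 from the mutant library, which made 72.9% of the cluster mutant (95% exact binomial interval 69.4% to 76.2%). The fine clustering did not divide it: fine cluster 15 held the same 683 cells and no others.

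Both groups were taken at 20 hours post fertilisation (hpf). The heterozygous group (npas4lbns423/+) carried 1 mutant copy of npas4l, and the mutant group (npas4lbns423/bns297) carried a different mutant allele on each chromosome, which the series' design text calls homozygous. The bns423 allele was therefore present in both groups, and no group without a mutant allele was analysed here. Each library pooled the tails of many embryos, cut at the front end of the yolk extension, and was sorted for GFP with dead cells left out by DAPI. There was 1 library per genotype, so cells are not replicates, no test was made between genotypes, and the intervals given here reflect how many cells were counted, not the spread between embryos, sorts or lanes.

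Npas4l is a basic helix-loop-helix PAS transcription factor encoded at the cloche locus of zebrafish. Embryos without it fail to form most endothelial and blood cells, and in the trunk and tail its transcript appears in mesoderm from which vessels and blood arise. RNA velocity uses the balance of unspliced, newly made transcripts and spliced, mature ones to infer in which direction a cell's expression is moving. From these directions the authors' velocity pseudotime orders cells from 0 to 1. A root cell score is high for cells from which the inferred flow leaves, an end point score is high for cells where the flow collects, and a self-transition score is high for cells that the inferred flow tends to keep where they are.

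The cluster held 3.55% of the heterozygous library (3.07% to 4.09%) and 9.46% of the mutant library (8.69% to 10.3%). In UMIs (unique molecular identifiers, which count captured transcripts) it made up 2.21% of 115131011 UMIs for the heterozygotes and 8.14% of 84294688 UMIs for the mutants. The direction of the difference in cells depended on the denominator. Outside coarse cluster 1, which was mostly heterozygous, the shares were 8.62% and 9.74%, with overlapping intervals. Outside coarse clusters 1 and 4 the heterozygous share was the higher one, 16.5% (14.4% to 18.8%) of 1120 cells against 9.78% (8.98% to 10.6%) of 5092. Cluster 4 was also mostly heterozygous, with 1027 heterozygous and 23 mutant cells. The mostly mutant clusters 3 (122 and 1447 cells) and 6 (11 and 743 cells) stayed in this denominator. The change of direction thus came with leaving out only mostly heterozygous clusters. Among cells of 12000 to 18000 UMIs the shares were 6.07% and 8.85%, a ratio of mutant to heterozygous share of 1.46, against 2.66 over all cells. A gain of cells in this cluster and a loss of cells elsewhere cannot be told apart with these shares.

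**Figure D1:**
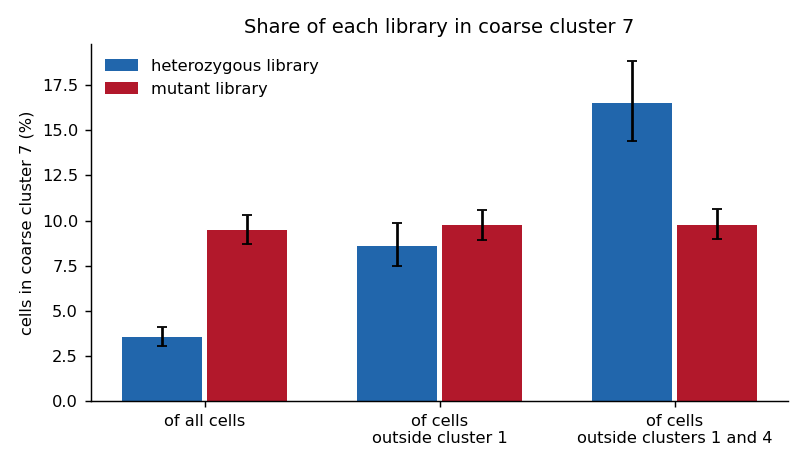
Percent of each library's cells in coarse cluster 7 (vertical axis) out of all cells, out of cells outside coarse cluster 1, and out of cells outside coarse clusters 1 and 4. Bars are shares and error bars exact 95% binomial intervals over cells; the mutant bar stays between 9.46% and 9.78% while the heterozygous bar goes from 3.55% to 16.5%.

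The cells of the cluster were among the shallower ones of the series and were alike in depth in both libraries. Heterozygous cells had 6264 to 34873 UMIs with a median of 12375 (12026 to 13266), and mutant cells had 5360 to 51957 with a median of 12606.5 (12059 to 12911). Mutant cells reached further at both ends of the range, but a range widens with the number of cells, here 498 against 185. The mutant median was 1.02 times the heterozygous one, with bounds of 0.909 and 1.07. The median number of genes detected was 2997 in heterozygous cells (2893 to 3078) and 3025 in mutant cells (2970 to 3091). Of the other coarse clusters, cluster 5 had the nearest median over both libraries, 12434 UMIs against 12532 in cluster 7, and cluster 6 was next with 11801.5. At the far end of the order, cluster 1 had 24989. Deep cells were few: 13 of the 498 mutant cells and 1 of the 185 heterozygous cells had 30000 UMIs or more.

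Unspliced transcripts made up a large part of the cluster's RNA for this series. The median was 10.4% of spliced plus unspliced UMIs in heterozygous cells (9.68% to 10.8%) and 10.2% in mutant cells (9.85% to 10.6%), and the intervals overlapped. The middle of the distribution was broad, with quartiles of 8.62% and 12.7% in heterozygous and 8.59% and 12.1% in mutant cells. Within each library the intervals of clusters 4, 5 and 8, and in the mutant library also that of cluster 6, overlapped that of cluster 7, so its place among these could not be given. Clusters 1, 2 and 3 lay below in both libraries, the nearest of them being cluster 3 with 7.88% in heterozygous and 7.91% in mutant cells. A few cells of cluster 7 had almost no unspliced RNA: 2 heterozygous and 3 mutant cells were under 2%, the lowest at 0.387%.

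Mitochondrial transcripts were the quality measure in which the libraries differed inside the cluster. Heterozygous cells had a median of 1.31% of UMIs (1.18% to 1.50%) and mutant cells 1.73% (1.66% to 1.80%), with quartiles of 0.954% and 1.80% against 1.33% and 2.15%. The mutant median was 0.428 percentage points higher (bounds of 0.164 and 0.626). A difference in the same direction was present in each of the other 6 coarse clusters with at least 20 cells per library, from 0.0795 points in cluster 4, where the intervals overlapped, to 0.685 points in cluster 1. It therefore moves with the library beside every genotype difference below, and its part in them was not tested.

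**Figure D2:**
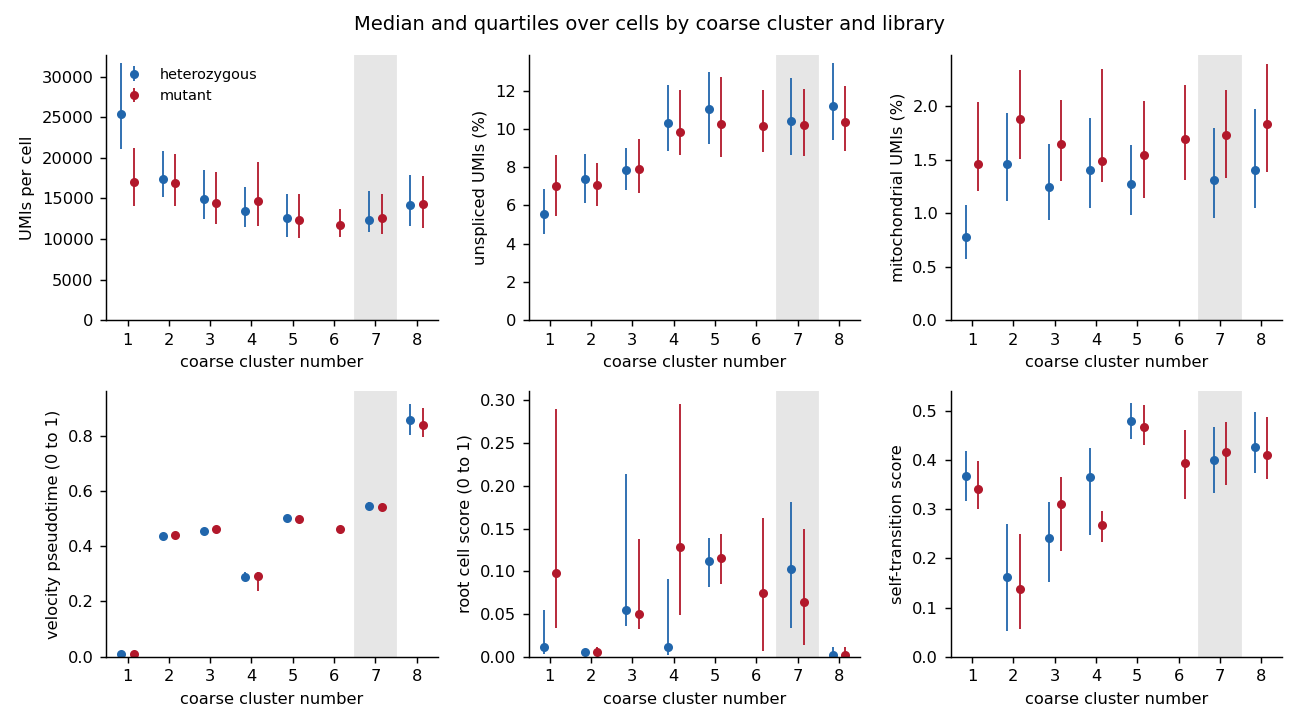
Median (points) and quartiles (lines) over cells of UMIs, unspliced percent, mitochondrial percent, pseudotime, root cell score and self-transition score for each coarse cluster and library with at least 20 cells, with cluster 7 shaded. In cluster 7 the libraries had medians of 12375 and 12606.5 UMIs and of 10.4% and 10.2% unspliced, while the root cell score had medians of 0.103 and 0.0635.

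In velocity pseudotime the cluster filled a band with few other cells at its centre and more of them towards its edges. Heterozygous cells ran from 0.482 to 0.651 with a median of 0.544, and mutant cells from 0.441 to 0.708 with a median of 0.5405. The quartiles lay at 0.536 and 0.561 in heterozygous and at 0.5303 and 0.553 in mutant cells. Those of cluster 5 were closer together, at 0.498 and 0.510 in heterozygous and at 0.497 and 0.506 in mutant cells. Those of cluster 8 were further apart, at 0.804 and 0.915 in heterozygous and at 0.795 and 0.902 in mutant cells. Between the quartiles of the whole cluster, 0.531 and 0.555, lay 348 cells of all clusters, and 341 of them belonged to cluster 7. The others were 4 cells of cluster 5, 2 of cluster 8 and 1 of cluster 3. In the wider window from the 5th to the 95th percentile of the cluster, 0.509 to 0.587, it held 613 of 883 cells, or 69.4%. The others there were 191 cells of cluster 5, 49 of cluster 6, 20 of cluster 8 and 10 of cluster 3. The pseudotime was computed on the same cells that were clustered, so the separation is a description of the ordering.

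The nearest cluster before it was cluster 5, whose median was 0.501 among heterozygous and 0.4995 among mutant cells, and the only cluster after it was cluster 8, at 0.855 and 0.839. Of the heterozygous cells of cluster 7, 7 lay below the upper quartile of cluster 5 in that library, and of the mutant cells 23 did. All 683 lay below the lower quartile of cluster 8 in their library. No median of another cluster fell between those of clusters 7 and 8. The difference in median pseudotime, mutant minus heterozygous, was -0.00327 in cluster 7, and its bounds of -0.00568 and -2.26e-06 only just left out 0. With the UMI, gene or mitochondrial limits or in the window of 12000 to 18000 UMIs the intervals overlapped.

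The libraries also differed within the cluster in the root cell score. In heterozygous cells it ran from 0.00144 to 1 with a median of 0.103 (0.0829 to 0.113), and in mutant cells from 0.00147 to 1 with a median of 0.0635 (0.0436 to 0.0798). The ranges overlapped almost fully, and the difference in medians, mutant minus heterozygous, was -0.0394 (bounds of -0.0699 and -0.00318). The mutant score was also lower at other points of the distribution. The lowest deciles were 0.0152 for heterozygous and 0.00479 for mutant cells, and the lower quartiles were 0.0341 and 0.0138. The upper quartiles were 0.181 and 0.150, and the highest deciles 0.545 and 0.401. Over both libraries cluster 6 had the nearest median root score, 0.0748 against 0.0785 in cluster 7. In the mutant library its interval, 0.0616 to 0.0881, overlapped that of cluster 7. Cluster 6 had 11 heterozygous cells, too few for a median there. The highest median over both libraries was 0.114 in cluster 5 and the lowest 0.00241 in cluster 8.

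Counted by threshold, 161 of 498 mutant cells had a root cell score under 0.02, which is 32.3% (28.2% to 36.6%), against 28 of 185 heterozygous cells or 15.1% (10.3% to 21.1%). The difference was 17.2 percentage points. This threshold was chosen after the values were seen, and thresholds of 0.01 and 0.05 gave differences of 11.6 and 18.0 points. At 0.1 or more the heterozygous share was the higher one, 51.4% (43.9% to 58.8%) against 38.4% (34.1% to 42.8%). At 0.2 or more the shares were 22.2% (16.4% to 28.8%) and 21.5% (18.0% to 25.4%), and at 0.5 or more they were 11.4% (7.17% to 16.8%) and 8.63% (6.32% to 11.5%), with overlapping intervals at both.

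Other clusters gave other values for this share. Cluster 6, the nearest in median root score, had 11 heterozygous cells and is not among those compared here. In cluster 5 no cell of either library was under 0.02. In cluster 3 the shares under 0.02 were 11.5% in heterozygous and 11.0% in mutant cells, in cluster 2 they were 88.9% and 86.4%, and in cluster 8 they were 83.1% and 83.6%, with overlapping intervals in all of these. In clusters 1 and 4 the order was the opposite, with 59.5% and 55.8% of the heterozygous against 17.7% and 21.7% of the mutant cells. None of these differences between clusters could be tested with 1 library per genotype.

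Cells at the top of the root score were present in both libraries. A score of 0.9 or more was given to 15 heterozygous cells, 8.11% (4.61% to 13.0%), and to 20 mutant cells, 4.02% (2.47% to 6.13%), and the intervals overlapped. Of these 35 cells, 32 had a score of exactly 1, the top of the scale. They were among 210 cells of the whole series tied at that value. Over the whole series 257 cells reached 0.9, so the cluster held 13.6% of them (9.67% to 18.4%) and 6.52% of all cells. In the mutant library it held 20 of 84 such cells, 23.8% (15.2% to 34.3%), and in the heterozygous library 15 of 173, 8.67% (4.93% to 13.9%). Its part of all cells there was 9.46% and 3.55%. Cluster 3 had a larger share than cluster 7 at 0.9 or more among heterozygous cells, 13.9% (8.33% to 21.4%). Cluster 1 had a larger share among mutant cells, 5.44% (2.38% to 10.4%). Cluster 3 mutant cells had 3.59% and cluster 1 heterozygous cells 4.12%, and all these intervals overlapped those of cluster 7. The remaining clusters were lower in both libraries. The 35 cells lay earlier in pseudotime than the rest of the cluster, with a median of 0.516 (0.508 to 0.537) against 0.541 (0.541 to 0.543) over both libraries together. They also had fewer unspliced transcripts, 9.03% (7.68% to 10.02%) against 10.3% (10.03% to 10.6%), with intervals only just apart. Within each library the intervals of both measures overlapped. Pseudotime and root score come from the same inferred flow, so their relation is not one between separate measures.

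The end point score was under 0.01 in all but 27 cells of the cluster. It ran from 3.08e-05 to 0.179 in heterozygous and from 2.00e-05 to 0.625 in mutant cells. The medians were 0.000688 (0.000500 to 0.000850) and 0.00164 (0.00129 to 0.00205), so the mutant median was 0.000950 higher, on a scale that ends at 1. The intervals overlapped with the UMI minimum (0.000100), the gene minimum (0.000492) and the mitochondrial maximum (0.000798) and in the UMI window (0.000555). A score of 0.1 or more was given to 1 heterozygous and 5 mutant cells. No cell reached 0.9, namely 0 of 185 heterozygous and 0 of 498 mutant cells. With 3 cells taken as the limit for a count of 0, this allows shares of up to 1.62% and 0.602%. That limit is not the exact interval used for the other shares. Cluster 8, the next in pseudotime, had median end point scores of 0.364 and 0.166. Root and end point scores come from the same inferred flow and ran against each other over the cells of cluster 7, with a Spearman rho of -0.63 over 185 heterozygous and -0.79 over 498 mutant cells.

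**Figure D3:**
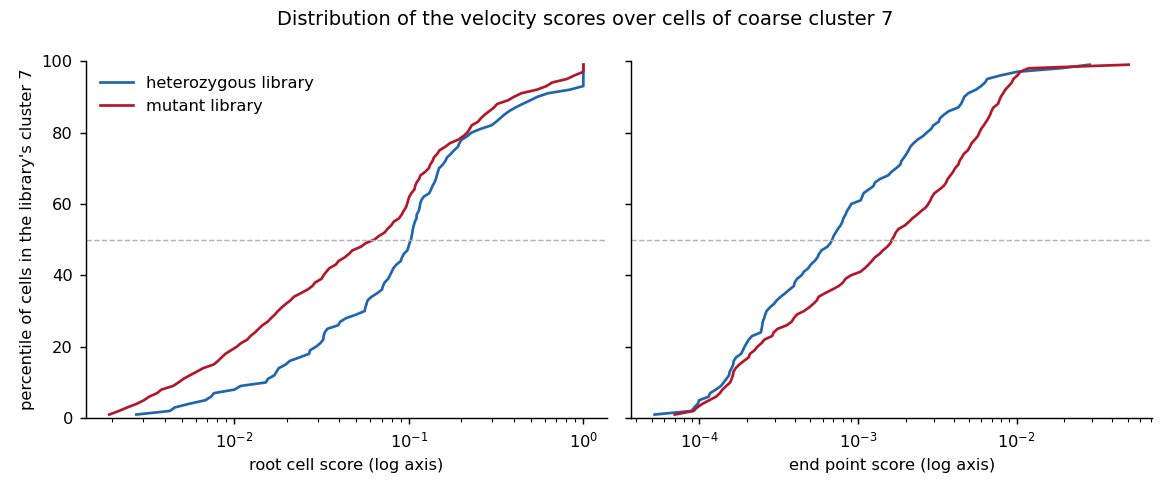
Percentiles (1 to 99, vertical axis) of the root cell score and of the end point score (horizontal axes, logarithmic) over the cells of cluster 7 in each library. The mutant curve of the root cell score lies to the left over most of its course, with lower quartiles of 0.0138 and 0.0341 and upper quartiles of 0.150 and 0.181, and the mutant curve of the end point score lies to the right around the medians of 0.00164 and 0.000688.

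Along pseudotime the root cell score of the cluster fell and rose again. Pseudotime and both scores come from the same inferred flow, so this course describes linked measures and is no independent result. Over both libraries its median was 0.458 in the 71 cells under 0.52, 0.0482 in the 79 cells from 0.52 to 0.53, and 0.0153 in the 163 cells from 0.53 to 0.54. It was 0.0336 in the 175 cells from 0.54 to 0.55, 0.131 in the 45 cells from 0.55 to 0.56 and 0.136 in the 150 cells at 0.56 or more. A rank correlation hides this course, since the Spearman rho of pseudotime and root score was 0.12 in both libraries. The end point score was highest where the root score was lowest, with a median of 0.00428 from 0.53 to 0.54, and lowest at 0.56 or more, with 0.000172. These bins were set after the values were seen.

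The mutant median root score was lower in all 6 of these bins, 3 of which held fewer than 20 heterozygous cells. In the 3 fuller bins the heterozygous and mutant medians were 0.0268 and 0.0117 from 0.53 to 0.54, 0.0574 and 0.0291 from 0.54 to 0.55, and 0.143 and 0.132 at 0.56 or more, with overlapping intervals in each. Cells with a root score under 0.02 were most frequent from 0.53 to 0.54, at 100 of 163 cells over both libraries. They were 24 of 79 from 0.52 to 0.53 and 59 of 175 from 0.54 to 0.55. Of the 189 such cells, 124 lay in the stretch from 0.52 to 0.54. In that stretch they were 17 of 54 heterozygous cells, 31.5% (19.5% to 45.6%), and 107 of 188 mutant cells, 56.9% (49.5% to 64.1%). In the rest of the cluster they were 11 of 131, 8.397% (4.27% to 14.5%) and 54 of 310, 17.4% (13.4% to 22.1%). Of these 65 cells over both libraries, 59 lay in the adjoining bin from 0.54 to 0.55. The cells themselves were spread along pseudotime with more heterozygous cells at the late end, at 0.56 or more, with shares of 27.6% (21.3% to 34.6%) in the heterozygous and 19.9% (16.5% to 23.7%) in the mutant library. From 0.52 to 0.53 the shares were 8.11% (4.61% to 13.0%) and 12.9% (10.04% to 16.1%). The intervals overlapped in each of the 6 bins. At or below 0.5353, the edge of the earliest of 3 groups of like size, lay 45 of 185 heterozygous and 183 of 498 mutant cells. No interval was computed for these shares, so the overlap in the 6 bins does not cover them. In this earliest group the median root score was 0.192 (0.0911 to 0.438) in heterozygous and 0.0398 (0.0297 to 0.0907) in mutant cells. These intervals were only just apart. The median end point scores there were 0.00125 (0.000748 to 0.00203) and 0.00352 (0.00269 to 0.00409), also apart. In the middle and latest groups the intervals of both scores overlapped.

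**Figure D4:**
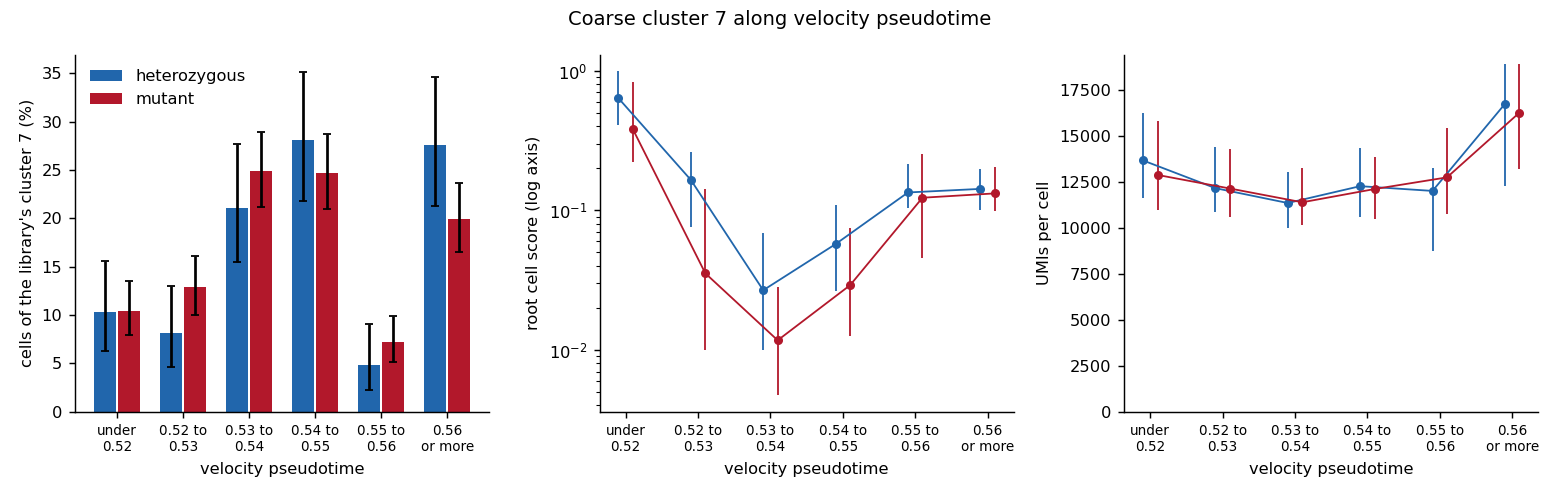
Share of each library's cluster 7 cells with exact 95% binomial intervals (left), root cell score on a logarithmic axis (middle) and UMIs per cell (right) in 6 bins of velocity pseudotime; points are medians and lines quartiles over cells. The root score is lowest from 0.53 to 0.54, at 0.0268 in heterozygous and 0.0117 in mutant cells, and UMIs are highest at 0.56 or more, at 16730 and 16255.

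Depth moved with both velocity scores inside the cluster. The Spearman rho of UMIs and root cell score was 0.37 over 185 heterozygous and 0.29 over 498 mutant cells. The cells at 0.56 or more in pseudotime were the deepest, with a median UMI count of 16730 in heterozygous and 16255 in mutant cells, and those from 0.53 to 0.54 the shallowest, with 11343 and 11382. The 189 cells with a root score under 0.02 had a median of 11390 UMIs (11036 to 11695), against 13160.5 (12723 to 13561) in the other 494. Their self-transition score was higher, 0.469 (0.461 to 0.479) against 0.376 (0.366 to 0.392), and so was their unspliced share, 11.0% (10.6% to 11.7%) against 9.96% (9.71% to 10.3%). Self-transition and root scores come from the same inferred flow and are not separate measures. For the unspliced share the intervals overlapped within the heterozygous library, 12.2% (10.5% to 15.1%) against 10.1% (9.50% to 10.8%), and were apart within the mutant one.

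The mutant root score was the lower one at each depth. When the cells were divided by UMIs into 3 groups of like size, the heterozygous and mutant medians were 0.0707 and 0.0286 in the shallowest cells, 0.0713 and 0.0381 in the middle ones and 0.142 and 0.123 in the deepest. The intervals overlapped in each of the 3. The end point score had medians of 0.000874 and 0.00278 in the shallowest, 0.00106 and 0.00243 in the middle and 0.000228 and 0.000318 in the deepest cells, again with overlapping intervals. Matching the libraries on UMIs left a difference in median root score of -0.0366, against -0.0394 without matching. The ratio of median UMIs was already 1.02 before matching, so this step could change little and does not settle the part of depth. Among cells above the UMI minimum of 14239.5 it was -0.0220, among cells at or below 1.39% mitochondrial UMIs it was -0.0212, and among cells with at least 2967 genes it was -0.0283. In the window of 12000 to 18000 UMIs it was -0.0292, and the intervals overlapped under each of these 4 limits.

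**Figure D5:**
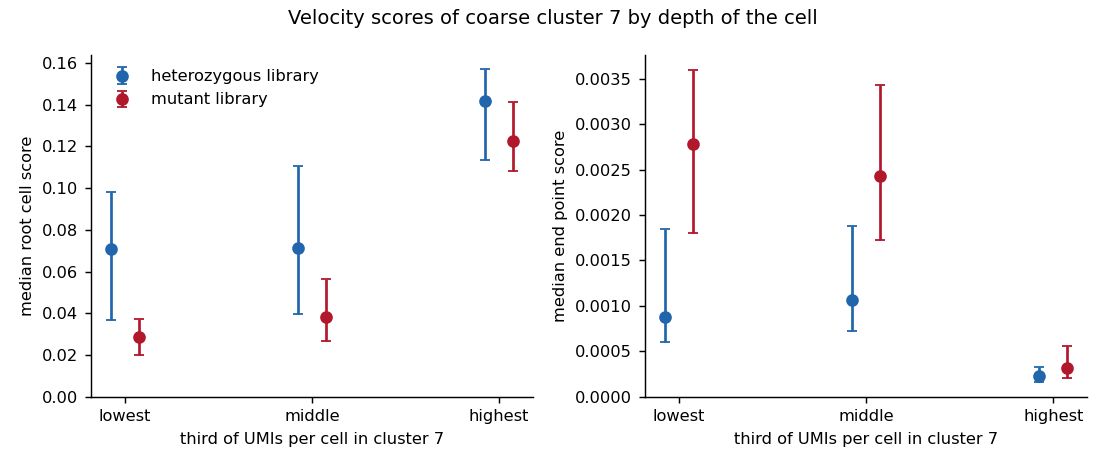
Median root cell score (left) and median end point score (right) with 95% order-statistic intervals over cells, for cells of cluster 7 divided by UMIs into lowest, middle and highest groups of like size. Root scores are highest in the deepest cells, at 0.142 in heterozygous and 0.123 in mutant cells, where end point scores are lowest, at 0.000228 and 0.000318.

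The self-transition score did not separate the libraries. Heterozygous cells ran from 0.0997 to 0.622 with a median of 0.401 (0.386 to 0.411), and mutant cells from 0.132 to 0.636 with a median of 0.417 (0.408 to 0.425). The mutant median was 0.0155 higher, with bounds of -0.00307 and 0.0394. Cluster 8 had a like median in both libraries, 0.426 and 0.410, with intervals that overlapped those of cluster 7. Cluster 5 lay above it, at 0.479 and 0.468, and cluster 2 had the lowest, at 0.163 and 0.137. The lower mutant root score did not hold at each level of self-transition. With the cells of cluster 7 divided by this score into 3 groups of like size, the lowest had median root scores of 0.131 in heterozygous and 0.166 in mutant cells. The middle group had 0.0643 and 0.0390, and intervals overlapped in both. In the highest group they were apart, at 0.0872 (0.0231 to 0.108) and 0.0160 (0.0123 to 0.0208).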

How the data were processed

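STARsolo, Scanpy and the build danRer11 are named in the submitters' processing notes. Not given in the sources used here are versions, cell filters, doublet treatment, clustering settings and the velocity tool. Each of the deposited tables has a row for every cell. Per the file headers, genes per cell are counts, total UMIs are a natural log of the total plus 1, mitochondrial values are percent, and velocity values are scores. The deposited spliced and unspliced sizes are a signal of whole numbers, read here as UMIs.

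From these, total UMIs were taken back from the log scale and rounded (largest distance from a whole number 0.0614), and unspliced percent as unspliced over spliced plus unspliced. All 683 cells had identical values in the other table for 5 measures. Barcodes shared by the libraries numbered 5, and 0 cells of cluster 7 had one. No gene-level counts were used, so cells were not thinned to 1 depth.

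Shares have exact (Clopper-Pearson) and medians exact order-statistic 95% intervals, computed with Python 3.11.15, numpy 2.4.6, pandas 2.3.3 and scipy 1.17.1, and checked on simulated data. Bounds of a difference or ratio come from opposite ends of the intervals. No p-value was computed. Medians need at least 20 cells per library unless their number is given. The items named are cluster 7, its fine cluster, the coarse clusters nearest to it and those at the ends of each order. The members, measures and comparisons were chosen with earlier results of these data known. Score thresholds under 0.5, the limits for deep cells and for few unspliced transcripts, the pseudotime bins and their alternatives were added after the values were seen.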

Additional observations from a re-analysis of the deposited data

Results flagged for a closer look

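Differences between the genotypes within cluster 7 ran opposite to those of some other coarse clusters whose intervals also lay apart; with 1 library per genotype, none of these contrasts between clusters was tested. The median root cell score was lower in mutant cells of cluster 7 (difference -0.0394) and higher in those of cluster 1 (0.0864) and cluster 4 (0.118, from 23 mutant cells). In cluster 1 the libraries also differed in depth, with median UMIs of 25372.5 in heterozygous and 17072 in mutant cells. The part of depth in that contrast was not tested. The median end point score was higher in mutant cells of cluster 7 (0.000950) and lower in those of cluster 1 (-0.0314) and cluster 4 (-0.0268). The median pseudotime was lower in mutant cells of cluster 7 (-0.00327) and higher in those of cluster 2 (0.00185) and cluster 3 (0.00652). In cluster 7 the bounds only just left out 0, with an upper bound of -2.26e-06. Its intervals overlapped with the UMI, gene or mitochondrial limits and in the UMI window.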

How the results depend on the processing

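Over 98 planned recalculations, 88 stayed within the bounds of the reported value, 9 moved beyond them and 1 changed the direction of a difference whose bounds had left out no change. The ratio of mutant to heterozygous share was 0.592 outside clusters 1 and 4 (reversed) and 1.13 outside cluster 1, both by the change of denominator. It was 3.52 with the UMI minimum, 4.06 with the minimum of 2967 genes, 3.83 with the mitochondrial maximum, 1.46 in the UMI window and 1.72 with 10 matched UMI bins; the cause was not tested. The mitochondrial difference was 0.139 points with the mitochondrial maximum, which removes the upper range. The end point difference was 0.000100 with the UMI minimum and 0.00381 for means; the cause was not tested. The root score difference ranged from -0.0464 to -0.0212 and the pseudotime difference from -0.00539 to -0.000267. The difference in root scores under 0.02 ranged from 11.6 to 18.0 points over 9 alternatives chosen after seeing the data. Its intervals overlapped with the UMI minimum (11.7 points) and the mitochondrial maximum (12.3 points). The ratio of UMIs, whose bounds included 1, fell below 1 with the gene minimum (0.953) and in the UMI window (0.988), and that of genes with the gene minimum (0.979). The other table, the fine cluster and the shared barcodes could not move a median, since the cells were the same, yet they count among the 88. Staying within the bounds also did not mean that the intervals stayed apart, as given above for pseudotime, root and end point scores. The other table holds no velocity measure, so these could not be recomputed from it. With 1 library per genotype, leaving one out was not possible. No paired analysis was possible because the labels give no replicate numbers and each group is 1 sample. Heterozygous cells, 185 in all, limit the precision.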

Other observations

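The relation of depth to root cell score differed in sign between clusters, as a description over cells of shared libraries. The Spearman rho of UMIs and root score was positive in both libraries in cluster 7 (0.37 in heterozygous and 0.29 in mutant cells), in cluster 8 (0.49 and 0.50) and in cluster 4 (0.11 and 0.13). It was negative in both libraries in cluster 1 (-0.26 and -0.42), cluster 2 (-0.38 and -0.36), cluster 3 (-0.34 and -0.03) and cluster 5 (-0.34 and -0.09). In cluster 6 it was -0.11 over 743 mutant cells, with too few heterozygous cells for a value. The mutant value of cluster 4 came from 23 cells, and the mutant values of clusters 3 and 5 lay near 0.

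The 64 cells of cluster 7 with a root score of 0.5 or more had a self-transition score of 0.343 (0.286 to 0.362), against 0.419 (0.410 to 0.427) in the other 619 cells. Over all cells of cluster 7 the Spearman rho of root and self-transition scores was -0.41 in 185 heterozygous and -0.57 in 498 mutant cells. Both scores come from the same inferred flow, so this relation is not one between separate measures. Unspliced and mitochondrial percent rose together over cells, with a rho of 0.30 and 0.33.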
